A study of Mus musculus with 8 samples.

Results

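Axon guidance ligands and receptors were followed across the arcuate nucleus (Arc), the ventromedial hypothalamus (VMH), the dorsomedial hypothalamus (DMH), and the lateral hypothalamus (LH) of the adult mouse. Members were all array probes whose RefSeq accession belongs to a mouse gene with a symbol beginning Epha, Ephb, Efna, Efnb, Sema, Plxn, Robo, or Unc5, together with *Nrp1*, *Nrp2*, *Slit1*, *Slit2*, *Ntn1*, *Ntn3*, *Ntn4*, *Ntng1*, *Ntng2*, and *Dcc*, and 1 semaphorin gene was not analysed here. This rule gave 91 of 55681 probes and 71 genes. The rule uses names and no measured value, although the families were chosen with earlier results of these data known. Of these genes, 14 encode Eph receptors, 8 ephrins, 19 semaphorins, 11 plexins or neuropilins, 6 Slits or Robos, and 10 netrins, *Dcc*, or Unc5 receptors. The remaining 3 (*Unc50*, *Unc5cl*, and *Plxna4os1*) match the symbol rule without belonging to these families. All tissue came from C57BL/6 females (C57BL/6J in the study's methods) at 3 months of age, and every nucleus was cut out by laser microdissection and measured on 2 one-color arrays, Arc1 to LH2, 8 in all. The RNA came from 2 mice, and the sources used here do not say which arrays share a mouse, so p-values measure the spread between these samples, which may be partly technical.

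Growing axons steer by reading attractive and repulsive proteins on other cells and in the matrix. Ephrins are membrane-bound ligands that signal through Eph receptor tyrosine kinases and can also signal back into the cell that carries them. Semaphorins act through plexins, with neuropilins as co-receptors for the secreted forms, Slits repel axons through Robo receptors, and netrins attract through Dcc and repel through Unc5 receptors. In the adult brain many of these genes stay on and are known for roles in synapses, myelin, and blood vessels.

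The values below are scaled signals, the background-subtracted spot brightness divided by a factor that sets the 75th percentile of every array to a common level. Between 47.1% and 52.7% of spots were well above background on an array, a call made by the image software for each spot. Replicate arrays correlated at 0.981 (Arc), 0.978 (VMH), 0.971 (DMH), and 0.938 (LH) over the log2 signals, and LH2 correlated more with DMH2 (0.954) and DMH1 (0.941) than with LH1. Marker genes matched the labelled nuclei for the Arc (5 of 5 called by the F-test) and the VMH (2 of 2). The arrays of the DMH also carried markers of the LH, with *Hcrt* at 55940 and 51283 in the DMH against 105971 and 116750 in the LH. *Pmch*, the other LH marker, was at 3938 and 3140 on the VMH arrays, 16253 and 11631 on those of the DMH, and 17650.1 and 17005 on those of the LH, against 97.5 and 71.1 on those of the Arc. *Prdm13*, a marker of the DMH, was at 1661 and 1667 in the DMH against 140.3 on LH1 and 27.8 on LH2. For its dissected nuclei the study reports a quantitative RT-PCR check (*Agrp*, *Nr5a1*, *Hcrt*, and *Crh*) that found no carry-over from neighbouring nuclei. In tissue of mixed cells, more cells of a type and more RNA per cell cannot be told apart.

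LH1 stood apart in 1 area of the array. Spots at 300 or more and well above background on the other 7 arrays but lost on the array in question numbered 181 on LH1, against 2 to 32 on each of the others. Of the 181, 180 lay in rows 200 to 384 and columns 1 to 90, which hold 26.4% of the spots, and they formed parallel stripes. 20 member probes lie in this area on LH1, and 4 of them (*Slit2*, *Plxna1*, and 1 probe each of *Ntng1* and *Plxnc1*) were lost there. On DMH1, 29 spots were lost in a small area that holds 0.725% of the spots and no member probe. The area was found after the data were seen, and results that rest on it are given with and without it. With it left out, the LH value of a member in the area rests on LH2 alone.

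**Figure D1:**
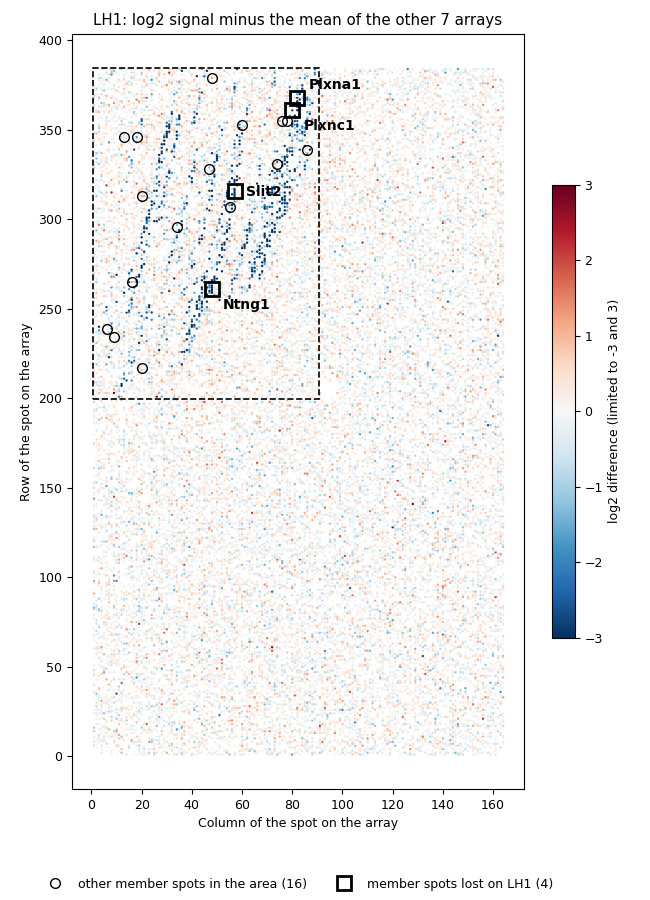
Map of the LH1 array, with each spot placed by its column (x axis) and row (y axis) and colored by its log2 signal on LH1 minus the mean of the other 7 arrays, for spots measured on the others. Dark blue spots form parallel stripes inside the dashed area (rows 200 to 384, columns 1 to 90), where squares mark the 4 member spots lost on LH1 and circles the other 16 member spots.

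Guidance genes differed among the nuclei. Of the 91 member probes, 76 (58 genes) were tested because both arrays of 1 or more nuclei read them well above background. The moderated F-test of limma called 19 of them (25%) at an adjusted p under 0.05, in 18 genes, and it called 8.34% of all 28896 probes tested. Because a probe can pass this filter only through the nucleus where it is high, the same test was run on the probes well above background on all 8 arrays, where it called 18 of 58 members (31%) and 10.6% of all 22747 probes. Among the 19 called probes 10 had their highest mean in the LH (39.8% of all 2410 called probes did), 5 in the Arc (23.2%), 3 in the VMH (29.3%), and 1 in the DMH (7.68%), and 11 had their lowest mean in the Arc (43.9%). Of the 11, *Epha8*, *Plxnb3*, and both called *Epha7* probes were not well above background on either Arc array and passed the filter only through other nuclei. No member reached the 10-fold enrichment over the 3 other nuclei that the study's methods use, under any setting run. The 57 tested probes not called had a range of nucleus means from 0.17 to 5.02 on the log2 scale, and 32 of them ranged under 2-fold.

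Comparisons that involve the Arc held 39 of the 55 calls on members (70.9%) and 66.7% of the 7158 calls on all probes. Between Arc and VMH, 14 member probes were called, against 5.92% of all probes tested, 5 higher in the Arc (2.4% of all probes) and 9 higher in the VMH (3.52%). Between Arc and DMH, 8 were called against 1.26% of all probes, 2 higher in the Arc (0.533%) and 6 in the DMH (0.727%). Between Arc and LH, 17 were called against 9.34%, 5 higher in the Arc (3.33%) and 12 in the LH (6.02%). VMH and DMH differed at 5 member probes against 2.04%, 3 higher in the VMH (1.1%) and 2 in the DMH (0.945%). VMH and LH differed at 9 against 5.28%, 2 higher in the VMH (2.24%) and 7 in the LH (3.04%). DMH and LH differed at 2, *Unc5b* and *Plxnb3*, against 0.924%, both higher in the LH (0.664%) and 0 higher in the DMH (0.26%). Without scaling between arrays, which moves the median of all probes by -0.27 (Arc minus VMH), -0.48 (Arc minus DMH), -0.16 (Arc minus LH), -0.21 (VMH minus DMH), 0.11 (VMH minus LH), and 0.32 (DMH minus LH) on the log2 scale, no member was called higher in the Arc than in the VMH or the DMH (8 were lower in each case), the VMH and DMH split was 0 against 2, and the VMH and LH split was 1 against 2. The calls on all probes were then 325 higher in the Arc against 914 in the VMH, 92 in the Arc against 393 in the DMH, 149 in the VMH against 251 in the DMH, and 454 in the VMH against 380 in the LH. Over the members tested the median difference was -0.16 for Arc minus VMH and lay between -0.08 and 0.03 in the other comparisons.

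**Figure D2:**
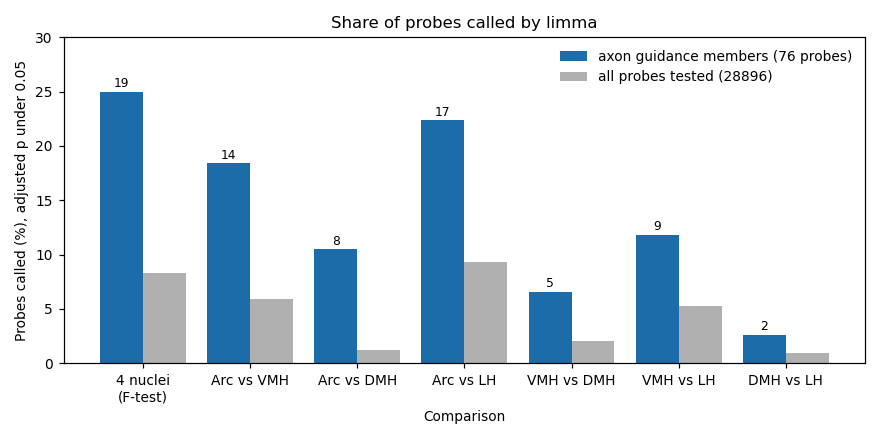
Share of probes called by limma (y axis, %, from 0) in the F-test over the 4 nuclei and in each pair of nuclei (x axis), for the 76 member probes tested (blue, with the number called above the bar) and for all 28896 probes tested (grey). The blue bar was the taller in all 7 comparisons, from 25% against 8.34% in the F-test to 2.63% against 0.924% between DMH and LH.

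Of the Eph receptors, 5 of 15 probes tested were called, in *Epha8*, *Ephb1*, *Epha5*, and *Epha7*. For 4 of the 15 probes (*Epha6*, *Epha8*, and 2 of *Epha7*) neither Arc array was well above background, so that these could be called in 1 direction only. The Eph calls against the Arc were all lower in the Arc (3 probes against the VMH, 3 against the DMH, and 5 against the LH), and 1, 2, and 3 of them were on such probes. Over the other 11, a choice made after the values were seen, the median difference was -0.17 for Arc minus VMH, -0.22 for Arc minus DMH, and -0.73 for Arc minus LH on the log2 scale, while over all probes measured in both nuclei it was 0.01, 0.03, and 0.05. Without scaling the medians of the 11 were -0.44, -0.70, and -0.89, with all probes at -0.26, -0.45, and -0.11, and with normexp background correction they were -0.13, -0.15, and -0.58.

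*Epha8*, an A-class Eph receptor, gave scaled signals of 33.8 and 31.2 in the Arc, 300.1 and 290.2 in the VMH, 479 and 433 in the DMH, and 674 and 1014 in the LH. The Arc arrays were not well above background, the other groups did not overlap with one another, and the order ran from Arc through VMH and DMH to LH, where DMH did not differ from VMH (adjusted p = 0.358) or from LH (adjusted p = 0.183) past the threshold and VMH was lower than LH (log2 difference VMH minus LH -1.49, SE 0.24, adjusted p = 0.0201). Relative to the Arc its level was at least 2.61-fold higher in VMH, at least 4.02-fold in DMH, and at least 7.31-fold in LH, a bound set by the dimmest measurable signal on the Arc arrays (limma adjusted p = 0.00122, 0.00112, and 0.000367). These bounds hold for the background subtracted by the image software, and with normexp the log2 differences were -1.12, -1.48, and -2.10, which is less than the bounds. *Epha8* had the lowest F-test p of all members (adjusted p = 0.000783).

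*Ephb1*, a B-class receptor known for guiding retinal axons at the optic chiasm, gave 447 and 684 in the Arc, 4166 and 4604 in the VMH, 2466 and 4180.3 in the DMH, and 5437 and 5534 in the LH. Both Arc arrays lay below all others, and the VMH, DMH, and LH did not differ from one another past the threshold. Against the Arc it was 7.93-fold higher in the VMH (log2 difference Arc minus VMH -2.99, SE 0.32, adjusted p = 0.00396), 5.81-fold higher in the DMH (log2 difference Arc minus DMH -2.54, SE 0.32, adjusted p = 0.0164), and 9.93-fold higher in the LH (log2 difference Arc minus LH -3.31, SE 0.32, adjusted p = 0.00247).

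*Epha5*, a receptor for A-class ephrins in topographic mapping, gave 877 and 913 in the Arc, 2524 and 1731 in the VMH, 1544 and 1768 in the DMH, and 3874 and 3021 in the LH on its called probe. The Arc was again the lowest group and did not overlap with the others, and the call was made against the VMH (log2 difference Arc minus VMH -1.22, SE 0.26, adjusted p = 0.0392) and the LH (log2 difference Arc minus LH -1.93, SE 0.26, adjusted p = 0.00626), not against the DMH (adjusted p = 0.224). A second *Epha5* probe, among the brightest of the array, was not called (F-test adjusted p = 0.748).

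*Epha7*, another A-class receptor, was called on 2 of its 3 probes. The first gave 30.8 and 28.2 in the Arc, 27.5 and 73.4 in the VMH, 229 and 214 in the DMH, and 339 and 197 in the LH, with neither the Arc nor the VMH well above background. Relative to the Arc, the DMH was at least 1.96-fold higher (adjusted p = 0.0406) and the LH at least 2.28-fold (adjusted p = 0.0101), and relative to the VMH, the LH was at least 2.49-fold higher (adjusted p = 0.0298). Over the alternatives these log2 differences came down to -0.927, -1.13, and -0.982, each less than its bound. The second called probe gave 95 and 96.8 in the Arc, 73 and 152 in the VMH, 259 and 226 in the DMH, and 281 and 400.3 in the LH, again with the Arc not well above background, and its LH level was at least 2.97-fold that of the Arc (adjusted p = 0.0271, with a log2 difference of -0.898 under normexp). The third gave 267 and 224 in the Arc, 614 and 349 in the VMH, 684 and 561 in the DMH, and 482 and 571 in the LH and was not called (adjusted p = 0.102), although its Arc arrays were also the lowest.

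Among the other Eph receptors, both *Ephb6* probes, both *Ephb4* probes, *Epha4*, *Epha6*, *Ephb2*, and *Ephb3* were not called. *Ephb2* ranged by only 0.17 on the log2 scale among the nuclei (F-test adjusted p = 0.909). *Epha6* gave 98.6 and 106 in the Arc, 195 and 177 in the VMH, 343 and 283 in the DMH, and 85.7 and 365 in the LH, and its LH1 spot lies in the striped area. Neither Arc array was well above background, and the DMH was at least 2.75-fold higher than the Arc (adjusted p = 0.375, not called). With the striped area left out, so that the LH rests on LH2 alone, the F-test adjusted p went from 0.362 to 0.0133, and the Arc was called lower than the DMH (adjusted p = 0.0192) and the LH (adjusted p = 0.0084). The F-test calls of *Epha8* and *Ephb1* held under every limma alternative in which they were tested. Between nuclei, the *Epha8* call of VMH against LH was lost under 3 of 16 alternatives. That of *Ephb1* for Arc against DMH was lost under 3 of 17. Leaving out Arc1 or Arc2 ended the F-test calls of *Epha5* and of both *Epha7* probes. The call of the first *Epha7* probe also ended with dim signals raised, and that of the second without scaling, without the filter, and without VMH1, DMH1, DMH2, or LH2. Of the called probes, *Epha5* and *Ephb1* have LH1 spots in the striped area, and both were called with it left out (F-test adjusted p = 0.0409 and 0.00718).

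**Figure D3:**
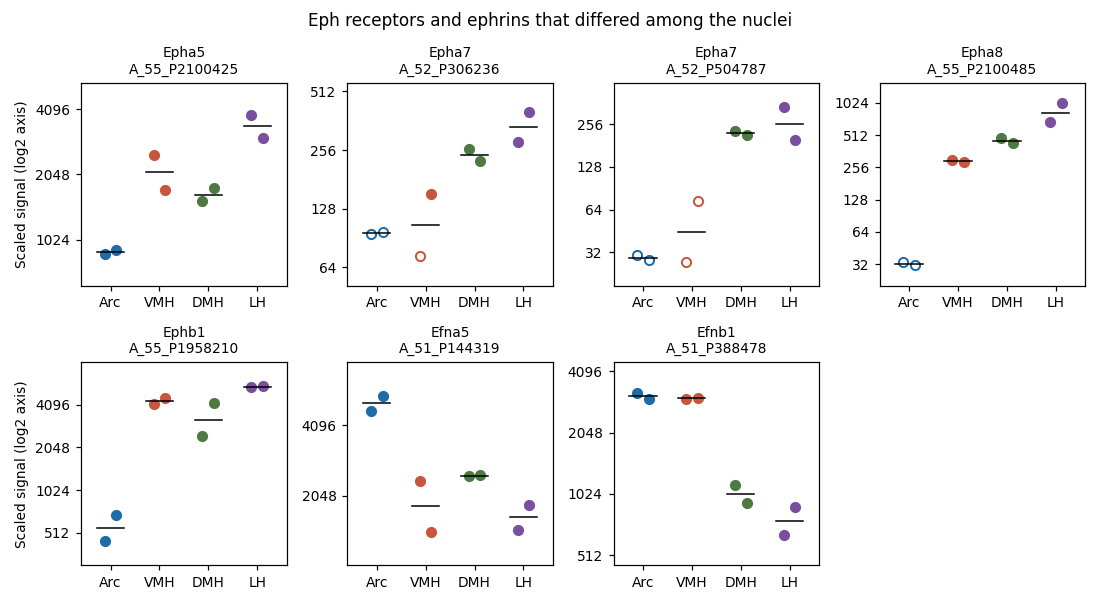
Scaled signals on a log2 axis (y) by nucleus (x) for the 5 Eph receptor probes and 2 ephrin probes called by the F-test, 1 dot per array and a line at the geometric mean of the 2 arrays. Open dots were not well above background. The Arc had the lowest mean for every Eph receptor probe shown, with both *Epha7* probes and *Epha8* not well above background there, and the highest for *Efna5*, and Arc and VMH were the high groups for *Efnb1*.

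The start region of *Epha8* is shown because it is the member with the lowest p. RefSeq windows (GRCm38.p6, 250 bases before to 50 bases after the annotated start, 5′ to 3′ on the gene's strand) were matched by symbol for 16 of the 18 called genes. The window of *Epha8* is chr4:136956767-136957066 on the minus strand, and it holds 56 CpG dinucleotides, where the median of all 32851 windows is 7 and that of the 21 windows of the called genes 23. Capitals mark matches, on either strand, to GGGCGG (a GC box, the core bound by Sp1) and AAGGTCA (the core bound by Nr5a1, the factor that marks the VMH), and neighbouring matches may overlap.
Epha8: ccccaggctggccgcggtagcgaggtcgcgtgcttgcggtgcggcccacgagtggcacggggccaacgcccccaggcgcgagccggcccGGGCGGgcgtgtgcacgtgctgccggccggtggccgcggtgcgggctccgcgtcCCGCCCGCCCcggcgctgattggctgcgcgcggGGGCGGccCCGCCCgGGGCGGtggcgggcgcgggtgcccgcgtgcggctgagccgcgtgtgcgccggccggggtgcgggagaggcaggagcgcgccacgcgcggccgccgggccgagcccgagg
It has 6 GC boxes and no AAGGTCA. GC boxes were found in 12 of the 21 windows of called genes (57.1%) and in 35.7% of all windows, AAGGTCA in 2 of 21 (*Sema5a* and *Nrp1*) and in 4.72% of all windows, and TATAAA in 0 of 21 and in 13.6% of all windows. A match is a string of letters in the window and not a measured site.

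Of the ephrins, *Efna5* and *Efnb1* were called (2 of 9 probes tested), each with its highest mean in the Arc. The median difference over the 9 probes was 0.23 against the VMH, 0.55 against the DMH, and 0.79 against the LH, and these went to -0.04, 0.07, and 0.63 without scaling and to 0.19, 0.33, and 0.60 with normexp. *Efna5*, an A-class ephrin that binds *Epha5*, *Epha7*, and *Epha8* products, gave 4709 and 5487 in the Arc, 2372 and 1432 in the VMH, 2475 and 2507 in the DMH, and 1459 and 1865 in the LH. Both Arc arrays lay above all others, and the call was made against the VMH (2.76-fold, log2 difference Arc minus VMH 1.46, SE 0.29, adjusted p = 0.0321) and the LH (3.08-fold, log2 difference Arc minus LH 1.62, SE 0.29, adjusted p = 0.018).

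*Efnb1*, a B-class ephrin and a ligand of *Ephb1*, split the nuclei into high and low pairs, with 3219 and 2989 in the Arc, 2999.8 and 3025 in the VMH, 1129 and 926 in the DMH, and 645 and 884 in the LH. Arc and VMH did not differ (adjusted p = 0.956), nor did DMH and LH past the threshold (adjusted p = 0.401). The Arc was 3.03-fold higher than the DMH (log2 difference Arc minus DMH 1.60, SE 0.23, adjusted p = 0.0263) and 4.11-fold higher than the LH (log2 difference Arc minus LH 2.04, SE 0.23, adjusted p = 0.00397). The VMH was 2.95-fold higher than the DMH (log2 difference VMH minus DMH 1.56, SE 0.23, adjusted p = 0.0217) and 3.99-fold higher than the LH (log2 difference VMH minus LH 2.00, SE 0.23, adjusted p = 0.00677).

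*Efna2*, *Efna3*, *Efna4*, *Efnb2*, and *Efnb3* were not called, and both *Efnb2* probes were highest in the Arc (F-test adjusted p = 0.203 and 0.156). *Efnb3* was at 4996 on LH1, in the striped area, and 15509 on LH2. The F-test call of *Efnb1* held under every limma alternative. Between nuclei, its calls were lost under 8 of 17 alternatives (Arc and DMH), 7 (VMH and DMH), and 1 (VMH and LH). The F-test call of *Efna5* ended without Arc1, Arc2, VMH2, DMH1, or DMH2, without a filter on dim probes, and with the replicate block.

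Of the semaphorins 4 of 17 probes tested were called. *Sema3c* and *Sema3f*, secreted ligands that signal through neuropilins and plexins, followed the same order as *Epha8*. *Sema3c* gave 203 and 303 in the Arc, 630.5 and 474 in the VMH, 1270.3 and 1446 in the DMH, and 1711 and 1509 in the LH. Its groups did not overlap, and it was 5.47-fold higher in the DMH (log2 difference Arc minus DMH -2.45, SE 0.27, adjusted p = 0.00978) and 6.48-fold higher in the LH, both relative to the Arc (log2 difference Arc minus LH -2.70, SE 0.27, adjusted p = 0.00272). The LH also exceeded the VMH (2.94-fold, log2 difference VMH minus LH -1.56, SE 0.27, adjusted p = 0.024), while VMH and Arc (adjusted p = 0.0587) and DMH and LH (adjusted p = 0.679) did not differ past the threshold. Another *Sema3c* probe was too dim to be tested, at 92.9 on LH1, in the striped area, and 50.2 on LH2.

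*Sema3f* gave 389.6 and 367 in the Arc, 1175 and 870.1 in the VMH, 1636 and 1629 in the DMH, and 2100.1 and 1942 in the LH. The groups were again separate, and the Arc was lower than the VMH (log2 difference Arc minus VMH -1.42, SE 0.22, adjusted p = 0.0135), the DMH (log2 difference Arc minus DMH -2.11, SE 0.22, adjusted p = 0.00835), and the LH (log2 difference Arc minus LH -2.42, SE 0.22, adjusted p = 0.0021). The VMH was lower than the LH (log2 difference VMH minus LH -0.998, SE 0.22, adjusted p = 0.048). Both F-test calls held under every limma alternative. Between nuclei, the *Sema3f* calls were lost under 12 of 17 alternatives (VMH and LH), 4 (Arc and DMH), and 3 (Arc and VMH). Those of *Sema3c* were lost under 5 (VMH and LH) and 3 (Arc and DMH).

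*Sema5a*, a membrane-bound semaphorin that can attract or repel axons, was highest in the VMH, with 810.2 and 1019.9 in the Arc, 3888 and 3152 in the VMH, 1215 and 1383 in the DMH, and 1577 and 2074 in the LH. Both VMH arrays lay above all others. It was 3.85-fold higher in the VMH than in the Arc (log2 difference Arc minus VMH -1.95, SE 0.24, adjusted p = 0.00685) and 2.7-fold higher than in the DMH (log2 difference VMH minus DMH 1.43, SE 0.24, adjusted p = 0.0375), and the difference to the LH missed the threshold (log2 difference 0.95, adjusted p = 0.0775). *Sema4d*, a membrane ligand of plexin B1 that oligodendrocytes are known to carry, was highest in the Arc, with 1287 and 1268 in the Arc, 539 and 616 in the VMH, 558 and 666 in the DMH, and 899 and 1013 in the LH. It was 2.22-fold higher in the Arc than in the VMH (log2 difference Arc minus VMH 1.15, SE 0.20, adjusted p = 0.0225), the only pair called.

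The window of *Sema5a*, chr15:32244563-32244862 on the plus strand, is shown because it holds an AAGGTCA and the gene was highest in the VMH, where *Nr5a1* was at 12163 and 11694 against 211 to 687.6 on the other arrays.
Sema5a: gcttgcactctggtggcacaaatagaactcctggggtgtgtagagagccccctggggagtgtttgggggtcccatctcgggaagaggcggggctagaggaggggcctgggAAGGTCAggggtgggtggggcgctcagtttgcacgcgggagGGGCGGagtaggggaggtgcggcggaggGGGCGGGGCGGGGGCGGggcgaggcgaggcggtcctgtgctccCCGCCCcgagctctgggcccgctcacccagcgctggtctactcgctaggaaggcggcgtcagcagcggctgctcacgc
It has 5 GC boxes and 1 AAGGTCA.

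The other 13 semaphorin probes tested were not called, among them *Sema4a*, *Sema4b*, *Sema4c*, *Sema4f*, *Sema4g*, *Sema6a*, *Sema6b*, *Sema6c*, *Sema3b*, and both probes of *Sema5b* and of *Sema6d*. *Sema3b* ranged by 0.19 on the log2 scale (F-test adjusted p = 0.936). Leaving out either Arc or either VMH array ended the F-test call of *Sema5a* (adjusted p up to 0.0885), and leaving out any array of Arc, VMH, or DMH, dropping the scaling, or dropping the filter ended that of *Sema4d* (up to 0.351).

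Of the receptors of semaphorins 3 of 15 probes were called, 1 each of *Nrp1*, *Plxnb3*, and *Plxnc1*. *Nrp1*, the co-receptor through which secreted semaphorins and VEGF act, gave 265 and 538 in the Arc, 111 and 96.7 in the VMH, 438 and 465 in the DMH, and 334 and 232 in the LH. Both VMH arrays lay below all others, and VMH1 was not well above background. It was 3.65-fold higher in the Arc (log2 difference Arc minus VMH 1.87, SE 0.36, adjusted p = 0.0304) and 4.36-fold higher in the DMH (log2 difference VMH minus DMH -2.13, SE 0.36, adjusted p = 0.0362) than in the VMH. Over the alternatives these log2 differences came down to 0.93 and -1.05. *Nrp2* had its lowest mean in the VMH on both of its probes and was not called (F-test adjusted p = 0.0613 and 0.0779).

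*Plxnb3*, a B-class plexin known from oligodendrocytes, was highest in the LH, with 88.8 and 97.9 in the Arc, 189.9 and 209 in the VMH, 203 and 131 in the DMH, and 646 and 883 in the LH. Both LH arrays lay above all others, and the Arc was not well above background. The LH was at least 6.68-fold higher than the Arc (adjusted p = 0.00223), 3.79-fold higher than the VMH (log2 difference VMH minus LH -1.92, SE 0.28, adjusted p = 0.0136), and 4.64-fold higher than the DMH (log2 difference DMH minus LH -2.21, SE 0.28, adjusted p = 0.0263). With normexp Arc minus LH was -1.64 on the log2 scale, which is less than that bound. Oligodendrocyte markers moved with it. All 12 of 12 oligodendrocyte markers were called by the F-test and were higher in LH against Arc, and their summed signal was 13611 to 22325 in the Arc, 38399 to 46367 in the VMH, 33786 to 34521 in the DMH, and 131746 to 142262 in the LH. *Sema4d*, which oligodendrocytes are also known to carry, was highest in the Arc, where the summed signal of the markers was lowest. The part of oligodendrocytes in the *Plxnb3* and *Sema4d* results was not tested.

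*Plxnc1*, the receptor of *Sema7a*, gave 6424 and 5421 in the Arc, 2479 and 2346 in the VMH, 3971 and 4395 in the DMH, and 1890.3 and 1632 in the LH on its called probe. The groups did not overlap, and the order ran from Arc and DMH down to VMH and LH. The Arc was 2.45-fold higher than the VMH (log2 difference Arc minus VMH 1.29, SE 0.20, adjusted p = 0.0149) and 3.36-fold higher than the LH (log2 difference Arc minus LH 1.75, SE 0.20, adjusted p = 0.0043), and DMH and LH just missed the threshold (adjusted p = 0.0501). The second *Plxnc1* probe was lost on LH1 (92.3 against 477.4 on LH2) and was not called with or without the striped area (adjusted p = 0.23 and 0.248). *Sema7a* itself was well above background on 1 array and was not tested.

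*Plxna4*, a receptor complex partner of neuropilins, was called in 1 comparison on 1 of its 2 probes, higher in the VMH than in the Arc (log2 difference Arc minus VMH -0.95, SE 0.21, adjusted p = 0.0442). That call was lost under 9 of 17 alternatives, among them no scaling, no filter on dim probes, and the replicate block. *Plxna1* was lost on LH1 (23.8 against 426.7 on LH2) and was not called with the striped area left out (F-test adjusted p = 0.0657). *Plxna2*, *Plxna3*, *Plxnb1*, *Plxnb2*, and both *Plxnd1* probes were not called. The F-test call of *Plxnb3* held under every limma alternative in which it was tested. Its calls of LH against DMH and of LH against VMH were lost under 7 and 2 of 16 alternatives. The F-test call of *Plxnc1* ended without Arc1. That of *Nrp1* ended without either VMH or either DMH array, with normexp, without the filter, and with the replicate block.

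The windows of *Nrp1* and *Plxnb3* are shown side by side, the first because it holds the other AAGGTCA match although the gene was lowest in the VMH, and the second because it is poor in CpG. They lie at chr8:128358823-128359122 and chrX:73756853-73757152, both on the plus strand.
Nrp1: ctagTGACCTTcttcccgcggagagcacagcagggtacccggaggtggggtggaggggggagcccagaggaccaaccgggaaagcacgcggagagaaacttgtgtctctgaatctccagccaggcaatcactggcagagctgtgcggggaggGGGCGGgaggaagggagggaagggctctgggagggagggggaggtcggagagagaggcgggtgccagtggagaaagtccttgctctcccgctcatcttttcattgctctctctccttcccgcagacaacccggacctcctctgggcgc
Plxnb3: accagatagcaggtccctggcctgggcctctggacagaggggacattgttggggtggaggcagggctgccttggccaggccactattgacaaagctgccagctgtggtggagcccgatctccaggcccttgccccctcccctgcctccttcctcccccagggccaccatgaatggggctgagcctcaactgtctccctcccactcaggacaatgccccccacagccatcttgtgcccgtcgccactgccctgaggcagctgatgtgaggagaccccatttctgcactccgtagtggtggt
*Nrp1* has 14 CpG, 1 GC box, and 1 AAGGTCA, and *Plxnb3* has 4 CpG and neither motif.

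**Figure D4:**
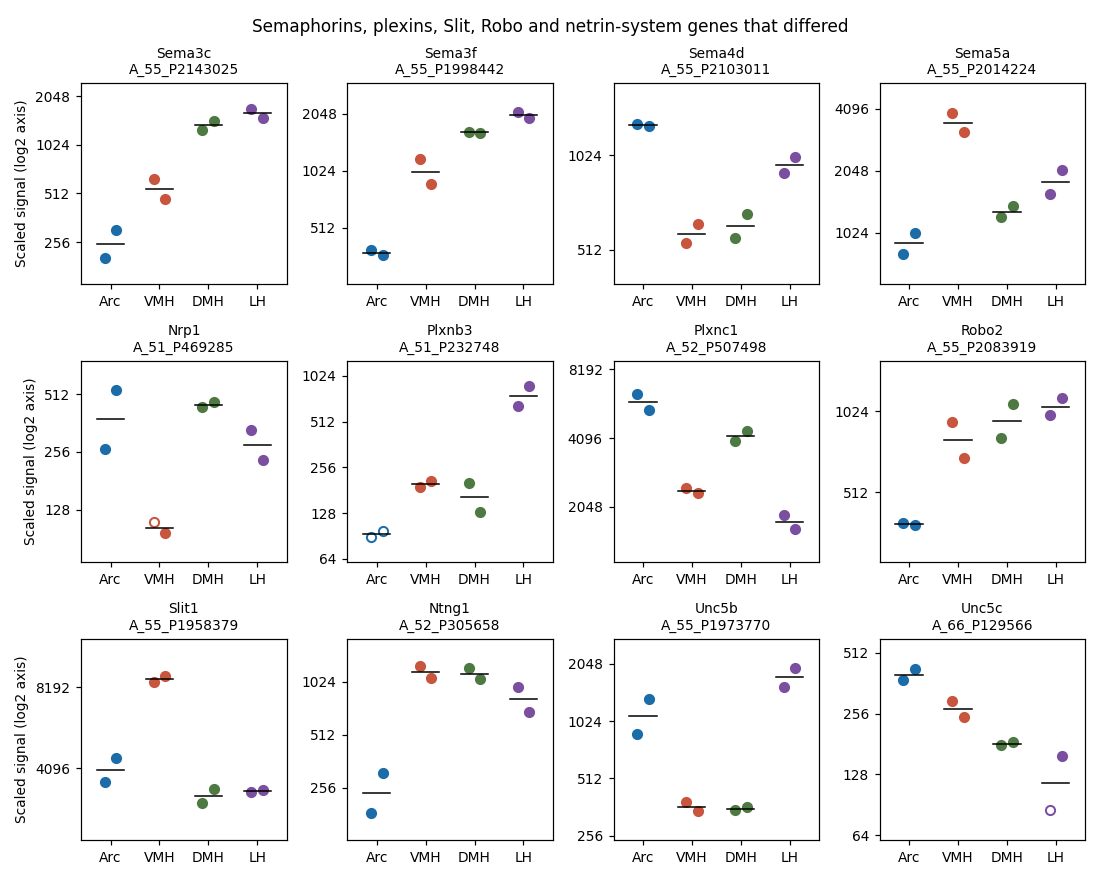
Scaled signals on a log2 axis (y) by nucleus (x) for the 12 called probes of semaphorins, plexins, *Nrp1*, Slit, Robo, and the netrin system, 1 dot per array, open where not well above background, and a line at the geometric mean. *Sema5a* and *Slit1* were highest in the VMH, *Nrp1* lowest there, and *Plxnb3* and *Unc5b* were highest in the LH.

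*Slit1* and *Slit2*, repellents that keep axons from crossing borders, were both highest in the VMH. *Slit1* gave 3635 and 4466 in the Arc, 8585 and 9014 in the VMH, 3044 and 3427 in the DMH, and 3337 and 3394 in the LH. Both VMH arrays lay above all others, and the Arc, DMH, and LH did not differ past the threshold. The VMH was 2.18-fold higher than the Arc (log2 difference Arc minus VMH -1.13, SE 0.20, adjusted p = 0.0235), 2.72-fold higher than the DMH (log2 difference VMH minus DMH 1.45, SE 0.20, adjusted p = 0.0179), and 2.61-fold higher than the LH (log2 difference VMH minus LH 1.39, SE 0.20, adjusted p = 0.0136).

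*Slit2* gave 1525 and 1361 in the Arc, 7268 and 6915 in the VMH, 2526 and 2885 in the DMH, and 24.8 and 1928 in the LH. The spread between LH1 and LH2 left it uncalled (F-test adjusted p = 0.288), and the LH1 spot lies on a stripe. With the striped area left out, the LH rests on LH2 alone, which is then assumed to vary like the other groups, and the F-test adjusted p was 0.00407. In that fit the VMH was higher than the Arc (log2 difference Arc minus VMH -2.30, adjusted p = 0.00198), the DMH (log2 difference VMH minus DMH 1.39, adjusted p = 0.0217), and the LH (log2 difference VMH minus LH 1.88, adjusted p = 0.0101, against 5.02 with LH1).

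**Figure D5:**
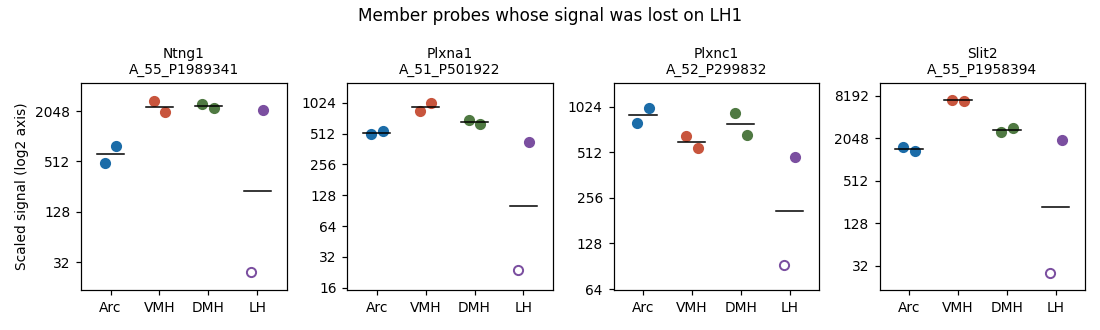
Scaled signals on a log2 axis (y) by nucleus (x) for the 4 member probes lost on LH1, 1 dot per array, open where not well above background, and a line at the geometric mean. LH1 was at 24.4 (*Ntng1*), 23.8 (*Plxna1*), 92.3 (*Plxnc1*), and 24.8 (*Slit2*), and LH2 was at 2113, 426.7, 477.4, and 1928.

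*Robo2*, a Slit receptor, gave 394 and 387 in the Arc, 931 and 687 in the VMH, 818 and 1086 in the DMH, and 990.4 and 1148 in the LH on its called probe. The Arc lay below all others, and the call was made against the LH (2.73-fold, log2 difference Arc minus LH -1.45, SE 0.25, adjusted p = 0.0158). Its second probe was also higher in LH against Arc (log2 difference Arc minus LH -1.05, adjusted p = 0.0327, and 0.0608 with the striped area left out, where its LH1 spot lies) and missed the F-test (adjusted p = 0.0743). *Robo1*, the other main Slit receptor, was not well above background in the Arc and missed the F-test (adjusted p = 0.0841). The LH exceeded the Arc at least 2.80-fold (adjusted p = 0.0277). Over the alternatives the log2 difference Arc minus LH came down to -1.11, which is less than that bound. With the striped area left out, where the LH1 spot of *Robo1* lies, it was -2.49 and was not called. *Robo4*, a receptor of blood vessels, was at 26.2 on LH1, in the striped area, and 459.9 on LH2 and was not called (F-test adjusted p = 0.812, and 0.0507 with the area left out, where Arc minus LH turned from above 0 to -0.86 on the log2 scale). The F-test call of *Slit1* ended without scaling and without Arc1, VMH1, or VMH2 (adjusted p up to 0.101), and that of *Robo2* ended without any array of Arc, VMH, or DMH, without the filter, and with the replicate block (up to 0.201).

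In the netrin system 3 of 13 probes were called. *Ntng1*, which encodes a membrane-anchored netrin that binds its own partner (NGL1, the product of *Lrrc4c*) and not Dcc, gave 184 and 308 in the Arc, 1253 and 1077 in the VMH, 1215 and 1064 in the DMH, and 956 and 689 in the LH. The Arc lay below all others, by 4.87-fold to the VMH (log2 difference Arc minus VMH -2.28, SE 0.31, adjusted p = 0.0084), 4.77-fold to the DMH (log2 difference Arc minus DMH -2.25, SE 0.31, adjusted p = 0.0201), and 3.41-fold to the LH (log2 difference Arc minus LH -1.77, SE 0.31, adjusted p = 0.0166). Its second probe, lost on LH1, gave 492 and 781 in the Arc, 2702 and 1990.0 in the VMH, 2489 and 2225 in the DMH, and 24.4 and 2113 in the LH. With the striped area left out that probe was called too (F-test adjusted p = 0.0204), with Arc minus VMH at -1.90 and Arc minus DMH at -1.93 on the log2 scale (adjusted p = 0.0134 and 0.0314).

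*Unc5b*, a netrin receptor also known from blood vessels, was high in the LH and the Arc, with 874 and 1342 in the Arc, 385 and 343 in the VMH, 348 and 359.9 in the DMH, and 1549 and 1957 in the LH. The VMH and DMH arrays lay below those of the Arc and the LH. Compared with the LH, the VMH was lower (4.79-fold, log2 difference VMH minus LH -2.26, SE 0.26, adjusted p = 0.00695) and so was the DMH (4.92-fold, log2 difference DMH minus LH -2.30, SE 0.26, adjusted p = 0.021). The Arc was higher than the VMH (2.98-fold, log2 difference Arc minus VMH 1.58, SE 0.26, adjusted p = 0.0184) and the DMH (3.06-fold, log2 difference Arc minus DMH 1.61, SE 0.26, adjusted p = 0.0423), and Arc and LH did not differ past the threshold (adjusted p = 0.157). The summed signal of 8 endothelial markers was 4830 to 4888 in the Arc, 4434 to 5137 in the VMH, 5622 to 6789 in the DMH, and 7371 to 9994 in the LH. Of the 7 tested, *Flt1* was called, and the part of these cells in the *Unc5b* result was not tested.

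*Unc5c*, a repulsive netrin receptor, ran in the reverse order of *Epha8*, with 374 and 427 in the Arc, 295 and 248 in the VMH, 179 and 185 in the DMH, and 85.2 and 158 in the LH on its called probe, where LH1 was not well above background. The call was made between Arc and LH (3.44-fold, log2 difference Arc minus LH 1.78, SE 0.31, adjusted p = 0.017). Over the alternatives this log2 difference came down to 0.78. The second *Unc5c* probe was not called (F-test adjusted p = 0.262). *Unc5d* was also higher in the Arc than in the LH, where LH2 was not well above background (log2 difference Arc minus LH 2.52, SE 0.52, adjusted p = 0.0284), and *Unc5a* was higher in the VMH than in the Arc (log2 difference Arc minus VMH -1.21, SE 0.25, adjusted p = 0.0352). Both missed the F-test (adjusted p = 0.0625 and 0.0527). *Unc5d* passed it with the striped area left out (0.0414), although its LH1 spot does not lie there and its own values did not change. The LH1 spot of *Unc5a* does lie there, and without that spot Arc minus LH went from -0.21 to -0.44 on the log2 scale.

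*Ntng2*, a relative of *Ntng1*, was well above background only in the DMH, so that it could be called in that direction only. It was at least 1.45-fold higher there than in the VMH (adjusted p = 0.0466), a call lost under 10 of 16 alternatives (adjusted p up to 0.606), the striped area left out among them (0.0509). *Ntn1*, the netrin of the floor plate, varied between replicates, with 5529 and 1498 in the Arc, 1820.3 and 1645 in the VMH, 1287 and 2203 in the DMH, and 2175 and 4230.4 in the LH, and was not called (F-test adjusted p = 0.612). All 3 probes of *Dcc*, the netrin receptor that attracts axons, had their highest mean log2 signals in the LH and their lowest in the Arc and were not called (F-test adjusted p = 0.794, 0.147, and 0.114). The F-test call of *Unc5b* held under every limma alternative. Its calls between nuclei were lost under 9 of 17 alternatives (Arc and DMH), 4 (Arc and VMH), 4 (DMH and LH), and 2 (VMH and LH). The F-test call of *Ntng1* ended without Arc1 or VMH1, and that of *Unc5c* ended under 11 of the 16 alternatives in which it was tested.

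Probes of 1 gene did not always act alike. Of 16 genes with several tested probes, 6 had 1 or more called and 1 not called (*Epha5*, *Epha7*, *Ntng1*, *Plxnc1*, *Robo2*, and *Unc5c*). *Sema3c* and *Ntn1* each had another probe that was too dim to be tested. For 13 genes no probe was tested, and these were *Efna1*, *Epha1*, *Epha2*, *Epha3*, *Epha10*, *Ntn4*, *Robo3*, *Sema3d*, *Sema3e*, *Sema3g*, *Sema7a*, *Plxna4os1*, and *Unc5cl*. Of them, *Sema3d* was well above background on 2 arrays, *Sema7a* on 1, and the others on 0. At the other end, *Ephb3*, *Sema4c*, and 1 probe each of *Epha5* and *Sema6d* stood among the 104 brightest of 55681 probes, and none of the 4 was called. *Unc50*, a symbol match with no role in guidance, was not called (F-test adjusted p = 0.383).

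In all, 55 calls were made in the 6 comparisons, on 25 probes of 23 genes, and 0 of them reversed under the 17 alternatives. Of the 55, 10 held under every limma alternative in which they were tested. They were *Epha8* in the Arc against each other nucleus, *Ephb1* in the Arc against VMH and LH, and *Efnb1*, *Plxnb3*, *Plxnc1*, *Sema3c*, and *Sema3f* in the Arc against LH. No matching count of held calls was made over all probes.

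Other genes of the guidance pathways, a list of 50 co-receptors, adhesion molecules, and signal carriers, were followed for comparison. Of their 73 probes tested, 12 were called by the F-test (16.4%, against 8.34% of all probes), and 10 were higher in LH against Arc (13.7%, against 6.02%) with 0 in the other direction (3.33% of all probes). In 8 genes a probe was called, and on the probe with the lowest p the highest mean log2 signal was in the LH for *Rnd1*, *Dock1*, and *Chn2*, in the VMH for *Lrrc4* and *Dpysl4*, and in the DMH for *Flrt2*, *Flrt3*, and *Dscaml1*. *Flrt3*, an adhesion protein that binds Unc5 receptors, had the lowest p of the list (F-test adjusted p = 0.00435) and was lower in the VMH than in the Arc (log2 difference Arc minus VMH 1.79, adjusted p = 0.00678) and the DMH (log2 difference VMH minus DMH -2.38, adjusted p = 0.00458). *Rnd1*, a small GTPase that binds plexins, was at 1318 and 1508 in the Arc, 1686 and 1698 in the VMH, 3975 and 5322 in the DMH, and 5055 and 7033 in the LH (F-test adjusted p = 0.00778). *Dock1*, a Rac activator downstream of Dcc, was at 470.0 and 328.3 in the Arc and 1151 and 1854 in the LH (log2 difference Arc minus LH -1.89, adjusted p = 0.0136). *Chn2*, a Rac inhibitor, was at 449.9 and 712.4 in the Arc and 2191 and 1879 in the LH (log2 difference Arc minus LH -1.84, adjusted p = 0.0097).

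Markers of other cells were followed over the same arrays. *Rax*, *Col23a1*, and *Vim*, markers of tanycytes, exceeded every other nucleus in the Arc (3 of 5 tested), and the summed signal of that list was 5830 to 6809 in the Arc against 1849 to 2514 in the others. *Gad1*, *Gad2*, and *Slc32a1*, markers of GABA neurons, were lower in the VMH than in the Arc, and *Slc17a6*, a marker of glutamate neurons, was higher, at 8341 and 10588 against 1365 and 1618. The summed signal of 8 astrocyte markers was 44712 to 52690 in the Arc and 91549 to 98450 in the LH, most of it from *S100b* and *Slc1a2*. Of the 8, 3 were called, and *Gfap*, 1 of these, was highest in the Arc, at 3735 and 6337 against 2412 and 3109 in the LH. The part of these cells in the guidance results was not tested.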

How the data were processed

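RNA from the Arc, VMH, DMH, and LH was amplified as a whole transcriptome, labeled, and hybridized to 8 Agilent one-color arrays. The authors extracted the deposited intensity of every spot with Feature Extraction (11.5.1.1 per the labels, 10.7.3.1 per the file headers), with background subtracted and no scaling between arrays. Cy3 is the dye in the labels and Cy5 in the methods, while the deposited values come from the red channel. Spots marked as outliers were left out, spots of a probe averaged, each array divided by its 75th percentile, and log2 taken. Of 28390 probes with a RefSeq accession, 94.3% were named through the mouse annotation GRCm38.p6. One linear model with a mean per nucleus was fitted in limma 3.58.1 (R 4.3.3) to 28896 probes, with 4 residual and 3.02 prior degrees of freedom, Benjamini-Hochberg adjustment over all of them, and a threshold of 0.05, and was tested on simulated data. Fold changes are ratios of geometric means, and a nucleus with neither array well above background gives a lower bound. Named were the members called by the F-test, the 3 largest called differences of each pair, genes whose probes disagree, and genes with no tested probe. Members and lists were chosen with earlier results of these data known, and other members are named as examples. The number of arrays and the signal over background limit the precision.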

Additional observations from a re-analysis of the deposited data

How the results depend on the processing

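Leaving out 1 array at a time moved the number of member probes called from 19 to between 9 (without Arc1) and 27 (without LH2) in the F-test, where the share of all probes called also moved, from 3.02% to 13.1%. The ranges were 3 to 21 for Arc and VMH (14 with all arrays, and 1.38% to 8.71% of all probes), 1 to 11 for Arc and DMH (8, and 0.277% to 2.19%), 8 to 22 for Arc and LH (17, and 2.4% to 12.6%), 0 to 10 for VMH and DMH (5, and 0.588% to 3.08%), 0 to 17 for VMH and LH (9, and 0.955% to 9.5%), and 0 to 9 for DMH and LH (2, and 0.111% to 4.4%), and any array of the Arc, VMH, or DMH left out ended 26 to 33 of the 55 calls. Without scaling the counts were 8 for Arc and VMH (4.29% of all probes), 2 for VMH and DMH (1.38%), 3 for VMH and LH (2.89%), and 1 for DMH and LH (0.578%). Quantile normalization split the DMH and LH calls 1 against 2. Without a filter on dim probes the counts were 7 for Arc and VMH (2.08%) and 2 for VMH and DMH (0.819%), and raising dim signals to the smallest measurable one gave 8 for VMH and DMH (2.32%). With the low areas of LH1 and DMH1 left out, an alternative chosen after seeing the data, 24 members passed the F-test (10.74% of all probes) and 9 differed between VMH and DMH (2.63%). One-way ANOVA, the test the study names for several groups, called 5 members after Benjamini-Hochberg adjustment and 1.84% of all probes. The cause of these changes was not tested, apart from the fewer arrays and the different number of probes that the alternatives themselves bring.

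Whether the replicate numbers pair the samples is not known. The labels tie no array to an animal, and the replicate differences of the nuclei correlated at -0.03 to 0.26. With the replicate block the F-test called 15 members (7.2% of all probes), Arc and DMH differed at 5 (1.02%), and VMH and DMH at 2 (1.72%), and the other counts stayed within 1.5 times. The block ended 11 of the 55 calls between nuclei, among them those of *Efnb1* and *Unc5b* between Arc and DMH. None of the 55 calls reversed under any alternative run. Values that were not called did change sign, such as the median of all members for DMH minus LH (-0.08, and 0.24 without scaling) and, with the low areas left out, the second *Ntng1* probe for Arc minus LH (1.45, and -1.77).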
